A study of Mus musculus with 13 samples.

Results

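The genes described here form 1 group of 35, the oxygen-sensing machinery, a set of its transcriptional targets and the enzymes and carriers of glycolysis. They were chosen by name. Each gene was read from the transcript cluster annotated to it alone, and from the cluster with the highest mean over 13 arrays where it had several. Of the 35 genes, 32 were measured in this way among 19938 genes in all. Gapdh lies only on clusters that name several genes, and no cluster was listed for Eno1 or Gpi1 alone. These 3 glycolytic enzymes have no value here.

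Each of 13 RNA samples of mouse rectum was read on a whole-transcript Affymetrix mouse array, whose probes lie along the length of each transcript. The study asked what separates tumours and inflamed mucosa from normal mucosa in mice that lack integrin α6 in the intestinal epithelium. There were 5 adenocarcinomas (numbers 1, 2, 3, 4 and 6) at 53 to 80 weeks of age, 4 pieces of the inflamed mucosa beside them (numbers 1 to 4) at 53 to 64 weeks, and 4 pieces of normal mucosa of control mice (numbers 1, 2, 4 and 6) at 53 to 70 weeks. Both sexes were present in each group. The genotype label reads α6fl/fl Villin-Cre for all 13 samples, while the source label calls the normal ones control. Villin-Cre acts in the intestinal epithelium, so other cells of the tissue keep integrin α6. Tumour and inflamed tissue came from rectal prolapses and was cut out of frozen sections of 50 to 100 µm, whereas normal mucosa was scraped from the rectum. In each comparison with normal mucosa, the condition and the way of collection cannot be told apart. The normal samples came from 4 animals. For the other groups the labels do not state a separate mouse per sample, so p-values measure the spread between these samples.

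Cells sense oxygen through hypoxia-inducible factors, HIF. The α subunits HIF-1α (Hif1a) and HIF-2α (Epas1) are hydroxylated by prolyl hydroxylases (Egln1, Egln3) when oxygen is plentiful, bound by the von Hippel-Lindau protein (Vhl) and degraded. When oxygen is short they pair with ARNT (Arnt) and switch on genes of blood vessel growth, mitophagy and glycolysis. HIF-α is regulated largely at the protein level, which these arrays do not read. The surface of the healthy colon faces a lumen nearly free of oxygen, and HIF is active in the surface epithelium of normal colon.

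Values are log2 expression values made by the authors with RMA, a method that brings all arrays to a common distribution, so a difference of 1 is a 2-fold change. Array medians lay between 6.41 and 6.59, and the number of arrays sets the precision. Epithelial markers were high in all 3 groups, with a mean over 10 genes of 11.95 to 12.01 in adenocarcinoma, 11.74 to 11.92 in inflamed mucosa and 12.04 to 12.21 in normal mucosa. They show that epithelium was present. The ranges of the 3 groups did not overlap, with normal mucosa highest and inflamed mucosa lowest. Of the 10, 4 fell and 1 rose in adenocarcinoma and 5 fell in inflamed mucosa, each against normal mucosa. The makeup of the samples differed. The mean of 10 mature colonocyte markers was 8.59 to 9.75 in adenocarcinoma, 11.22 to 11.36 in inflamed mucosa and 12.09 to 12.31 in normal mucosa. Fibroblast markers were at 9.18 to 9.73 in adenocarcinoma, 9.15 to 9.66 in inflamed mucosa and 6.83 to 7.91 in normal mucosa. Smooth muscle markers were at 8.69 to 8.94 in adenocarcinoma, 10.18 to 11.08 in inflamed mucosa and 6.76 to 8.17 in normal mucosa, and 8 and 10 of 10 were higher in adenocarcinoma and inflamed mucosa than in normal mucosa. Macrophage markers were at 7.87 to 8.61 in adenocarcinoma, 8.61 to 9.20 in inflamed mucosa and 6.48 to 7.71 in normal mucosa, with 8 and 9 of 9 higher. Neutrophil markers were at 7.91 to 8.99 in adenocarcinoma, 6.56 to 6.88 in inflamed mucosa and 6.38 to 7.76 in normal mucosa, with 7 of 10 higher in adenocarcinoma, and 1 higher and 2 lower in inflamed mucosa. In such bulk tissue, fewer cells of a type and less RNA per cell cannot be told apart. Normal mucosa 1 stood apart in squamous epithelium markers, with a mean of 10.43 over 8 genes against 6.02 to 6.31 in the other normal samples and 5.90 to 6.17 in inflamed mucosa, and adenocarcinoma 2 was also high at 8.55. Normal mucosa 1 was also the highest normal sample in neutrophil markers (7.76 against 6.38 to 6.56) and macrophage markers (7.71 against 6.48 to 7.0). Normal mucosa 6 had the highest smooth muscle marker mean of the normal samples, 8.17 against 6.76 to 7.20, and lay below all adenocarcinoma and inflamed samples. It was also the highest normal sample in fibroblast (7.91 against 6.83 to 6.99), endothelial (6.58 against 6.0 to 6.25) and proliferation markers (8.55 against 7.26 to 8.31). In epithelial markers it was the lowest normal sample (12.04 against 12.13 to 12.21). At 70 weeks it was the oldest of them. The part of these differences in the results was not tested.

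Most of the hypoxia and glycolysis genes were lower in adenocarcinoma than in normal mucosa. With limma, 18 of 32 genes fell (56.2%) and 2 rose (6.25%) at an adjusted p below 0.05, where 19.4% of all 19938 genes fell and 16.4% rose. The fallen genes ran from enolase 3 (Eno3, 8.66-fold) and the mitophagy receptor Bnip3 (3.36-fold) to lactate dehydrogenase A (Ldha, 1.21-fold). The genes that rose were Hif1a (1.26-fold) and the collagen prolyl hydroxylase P4ha2 (1.34-fold). The median log2 difference was -0.32 over the 32 genes and -0.10 over all genes. Every adenocarcinoma lay below every normal sample in 10 of the 32 genes and above in 2, where this held for 13.9% and 13% of all genes. Only Eno3 and Bnip3 fell by at least 2-fold, a size passed by 2.63% of all genes. Leaving out each array in turn gave 13 to 19 lower and 2 to 3 higher. Over all genes, 12.8% to 21.9% were lower and 14% to 16.5% higher. Without both normal mucosa 1 and adenocarcinoma 2, the count of lower genes was 9, and 12.3% of all genes were lower.

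Inflamed mucosa was likewise lower than normal mucosa, in a comparison that uses the same 4 normal samples. There, 17 of 32 genes fell (53.1%) and 0 rose, where 13% of all genes fell and 13.7% rose by the same limma test. At an unadjusted p below 0.05 the count of higher genes was also 0. By adjusted p it was 1 without normal mucosa 1 (Pfkfb3) and 1 with cyclic loess scaling (Hk1), where 12.1% and 14.7% of all genes were higher. The falls were led by Eno3 (4.97-fold), the lactate exporter Slc16a3 (2.44-fold) and Bnip3 (2.09-fold), the 3 that fell at least 2-fold, as 1.06% of all genes did. Another Bnip3 cluster fell by less than 2-fold there (-0.96). The median difference was -0.36 over the 32 genes and -0.09 over all genes. Every inflamed sample lay below every normal sample in 12 of the 32 genes, where 15.5% of all genes did so, and above in 0, where 12% did. The count of lower genes was sensitive to single arrays. It was 10 without inflamed mucosa 2, normal mucosa 1 or normal mucosa 4, where 6.98%, 10.4% and 12.6% of all genes were lower. It was 9 without normal mucosa 2 (7.38% of all genes) and 20 without normal mucosa 6 (15.2% of all genes).

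Adenocarcinoma and the inflamed mucosa beside it differed in few of the genes. Hif1a and the vasodilator peptide gene adrenomedullin (Adm) were higher in adenocarcinoma and Eno3 was lower, 2 and 1 of 32 genes, where 2.91% of all genes were higher and 4.21% lower. The median difference was -0.03 over the 32 genes and -0.01 over all genes. With same-numbered samples blocked as pairs, 3 were higher and 1 lower, where 3.67% and 5.89% of all genes were. In that fit Adm lost its call (0.76, adjusted p = 0.0635), and Slc16a3 (0.50, adjusted p = 0.0312) and the hexokinase gene Hk2 (0.60, adjusted p = 0.0348) passed as higher. Leaving out single arrays moved these counts, while 1.51% to 3.32% of all genes were higher and 2.37% to 4.97% lower. The higher count was 1 without adenocarcinoma 1, 2, 4 or 6 or inflamed mucosa 2 or 4. The lower count was 0 without adenocarcinoma 4 or any 1 inflamed sample, and 2 without adenocarcinoma 1 or 3.

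**Figure D1:**
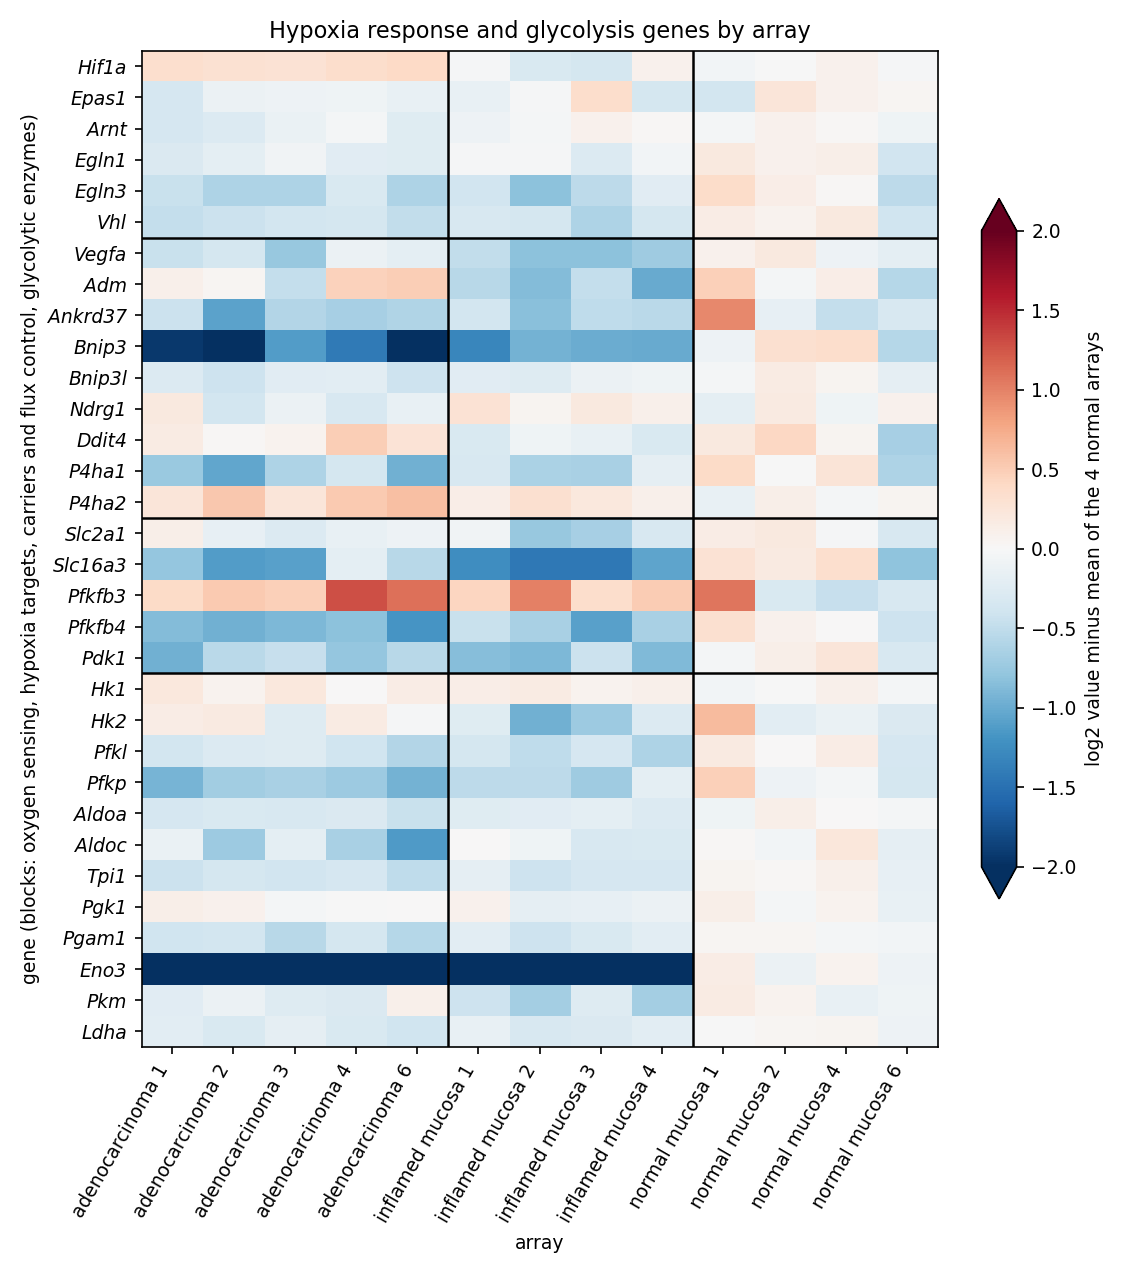
Log2 value of each of the 32 genes on each of the 13 arrays minus the mean of the 4 normal arrays, with genes in rows grouped by role and arrays in columns, adenocarcinoma at the left. Blue is below the normal mean and red above it, and colours are capped at 2 in either direction. Eno3 is beyond the cap on all 9 adenocarcinoma and inflamed arrays, and Hif1a is above the normal mean on all 5 adenocarcinoma arrays.

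To show what the affected genes carry at their starts, promoter windows of 300 bases (250 before to 50 after the start) are given for 5 of them. Eno3, Bnip3 and Slc16a3 fell by at least 2-fold in a comparison with normal mucosa, Hif1a rose in adenocarcinoma, and Ldha holds the most matches of the windows listed. HIF binds the core letters ACGTG or GCGTG, searched here on both strands, so capitals mark these letters or their reverse complements CACGT and CACGC, and CACGTG holds overlapping matches on both strands. Sequences and coordinates are from RefSeq, build GRCm38.p6, and each reads in the direction of its gene.
Eno3, chr11:70656926-70657225, plus strand: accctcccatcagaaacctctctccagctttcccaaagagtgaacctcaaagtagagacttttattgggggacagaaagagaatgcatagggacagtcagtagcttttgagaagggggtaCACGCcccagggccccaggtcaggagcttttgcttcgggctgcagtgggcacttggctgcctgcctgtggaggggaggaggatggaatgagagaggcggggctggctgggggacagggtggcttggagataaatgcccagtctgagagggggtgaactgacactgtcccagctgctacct
Bnip3, chr7:138909457-138909756, minus strand: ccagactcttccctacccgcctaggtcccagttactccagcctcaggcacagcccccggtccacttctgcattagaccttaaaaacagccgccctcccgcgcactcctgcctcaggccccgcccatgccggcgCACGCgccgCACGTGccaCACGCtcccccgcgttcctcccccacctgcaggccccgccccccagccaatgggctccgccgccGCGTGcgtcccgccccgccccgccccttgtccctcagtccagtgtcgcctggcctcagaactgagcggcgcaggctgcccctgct
Slc16a3, chr11:120948817-120949116, plus strand: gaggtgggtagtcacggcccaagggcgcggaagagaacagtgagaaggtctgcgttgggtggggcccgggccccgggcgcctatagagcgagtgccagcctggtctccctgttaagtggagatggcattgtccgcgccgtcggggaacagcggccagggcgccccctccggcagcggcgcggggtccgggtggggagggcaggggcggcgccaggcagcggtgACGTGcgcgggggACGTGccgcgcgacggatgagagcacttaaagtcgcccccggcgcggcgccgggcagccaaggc
Hif1a, chr12:73907617-73907916, plus strand: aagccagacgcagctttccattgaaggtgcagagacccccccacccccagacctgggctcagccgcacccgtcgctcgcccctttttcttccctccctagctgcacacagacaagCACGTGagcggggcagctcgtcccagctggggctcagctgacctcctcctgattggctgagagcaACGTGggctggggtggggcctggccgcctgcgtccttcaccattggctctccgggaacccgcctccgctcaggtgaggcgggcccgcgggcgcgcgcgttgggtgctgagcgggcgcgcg
Ldha, chr7:46845554-46845853, plus strand: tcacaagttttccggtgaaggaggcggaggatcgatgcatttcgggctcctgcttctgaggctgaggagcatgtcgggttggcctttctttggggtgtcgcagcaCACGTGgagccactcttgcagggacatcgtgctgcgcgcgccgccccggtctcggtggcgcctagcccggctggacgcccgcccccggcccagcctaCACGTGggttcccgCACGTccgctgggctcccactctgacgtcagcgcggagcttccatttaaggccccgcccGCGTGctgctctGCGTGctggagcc
The window of Eno3 holds 1 match, that of Bnip3 5, that of Slc16a3 2, that of Hif1a 3 and that of Ldha 7. Windows were matched for 32 of the 35 genes, and these include Eno1, Gapdh and Gpi1 but not Epas1, Bnip3l and Ndrg1. Of their 43 windows, 35 (81.4%) hold at least 1 match, against 51.7% of the windows of all genes tested here and 43.8% of all windows of this length in the table. For ACGTG alone the shares are 53.5%, 21.6% and 19.6%. These shares cover genes chosen by name, whether they changed or not. Of the 23 windows of those that fell in adenocarcinoma, 78.3% hold a match, and 47.8% hold ACGTG. Base composition differed as well, with a mean GC content of 62.7% in the 43 windows and 57.2% in those of all genes tested. A match is a run of letters and not a shown binding site.

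Among the 6 oxygen-sensing genes, Hif1a rose and Egln3 and Vhl fell in adenocarcinoma, and the other 3 did not pass the test. These are 16.7% higher and 33.3% lower, where 16.4% and 19.4% of all genes were. Hif1a, the α subunit of HIF-1, was at 11.84, 11.81, 11.80, 11.86 and 11.90 in adenocarcinoma 1, 2, 3, 4 and 6, against 11.48, 11.20, 11.16 and 11.60 in inflamed mucosa (samples 1 to 4) and 11.45, 11.50, 11.60 and 11.48 in normal mucosa (samples 1, 2, 4 and 6). All 5 adenocarcinomas lay within 0.1 of each other and above all 8 other samples. The log2 difference was 0.34 ± 0.09 (SE) against normal mucosa (limma adjusted p = 0.0128) and 0.48 ± 0.09 against inflamed mucosa (adjusted p = 0.00633). Inflamed mucosa differed from normal mucosa by -0.15 ± 0.10 (adjusted p = 0.26). The rise against normal mucosa did not pass without both normal mucosa 1 and 6 (0.30, adjusted p = 0.082), nor without both normal mucosa 1 and adenocarcinoma 2 (0.33, adjusted p = 0.0541).

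Epas1, the α subunit of HIF-2, was at 10.34, 10.56, 10.58, 10.59 and 10.54 in adenocarcinoma, 10.53, 10.66, 11.03 and 10.33 in inflamed mucosa, and 10.32, 10.92, 10.77 and 10.72 in normal mucosa. Arnt, the partner of both α subunits, was at 10.09, 10.16, 10.29, 10.39 and 10.18 in adenocarcinoma, 10.33, 10.39, 10.51 and 10.46 in inflamed mucosa, and 10.39, 10.52, 10.46 and 10.35 in normal mucosa. The groups overlapped in both genes. The difference of adenocarcinoma from normal mucosa was -0.16 ± 0.14 for Epas1 (limma adjusted p = 0.363). For Arnt it was -0.21 ± 0.08 (adjusted p = 0.0571), and it passed without adenocarcinoma 4 (-0.25, adjusted p = 0.0352) and with sex as a covariate (-0.22, adjusted p = 0.0311). In inflamed mucosa both were within 0.05 of the normal mean.

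Egln1 and Egln3 encode prolyl hydroxylases that mark HIF-α for degradation. Egln1 was at 9.36, 9.45, 9.58, 9.42 and 9.41 in adenocarcinoma, 9.62, 9.63, 9.38 and 9.59 in inflamed mucosa, and 9.84, 9.74, 9.76 and 9.26 in normal mucosa. Egln3 was at 11.28, 11.11, 11.11, 11.42 and 11.11 in adenocarcinoma, 11.34, 10.90, 11.20 and 11.49 in inflamed mucosa, and 12.08, 11.85, 11.75 and 11.20 in normal mucosa. In both genes normal mucosa 6 was the lowest normal sample and lay among the adenocarcinomas or below them. The adenocarcinoma minus normal difference of Egln1 was -0.21 ± 0.11 (limma adjusted p = 0.159), and without normal mucosa 6 it was -0.34 (adjusted p = 0.00923). Egln3 fell in adenocarcinoma (-0.51 ± 0.16, adjusted p = 0.0241) and in inflamed mucosa (-0.49 ± 0.17, adjusted p = 0.0466). The fall in adenocarcinoma was not called when adenocarcinoma 2 or 3 or normal mucosa 1 or 2 was left out (adjusted p 0.05 to 0.0735), and the fall in inflamed mucosa was lost with 11 of the 13 arrays left out in turn, all but inflamed mucosa 4 and normal mucosa 6 (adjusted p 0.0511 to 0.142).

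Vhl, the substrate-binding part of the ubiquitin ligase that removes HIF-α, was at 7.93, 7.97, 8.04, 8.05 and 7.92 in adenocarcinoma, 8.09, 8.05, 7.79 and 8.05 in inflamed mucosa, and 8.55, 8.47, 8.60 and 8.0 in normal mucosa. Normal mucosa 1, 2 and 4 lay above all other samples and normal mucosa 6 lay among them. Vhl fell by 0.42 on the log2 scale in adenocarcinoma (limma adjusted p = 0.0117) and by 0.41 in inflamed mucosa (adjusted p = 0.0232). The call in inflamed mucosa ended without inflamed mucosa 3 or normal mucosa 1, 2 or 4 (adjusted p 0.0586 to 0.0623), and the call in adenocarcinoma ended without both normal mucosa 1 and adenocarcinoma 2 (-0.37, adjusted p = 0.0631).

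The 9 target genes outside glycolysis were mixed, with 5 lower (55.6%) and 1 higher (11.1%) in adenocarcinoma and 3 lower (33.3%) in inflamed mucosa. Of all genes, 19.4% were lower and 16.4% higher in adenocarcinoma, and 13% were lower in inflamed mucosa. Bnip3, a mitochondrial protein that marks mitochondria for removal, was at 8.74, 8.43, 9.54, 9.25 and 8.62 in adenocarcinoma, 9.36, 9.72, 9.68 and 9.65 in inflamed mucosa, and 10.57, 10.98, 11.02 and 10.09 in normal mucosa. Every adenocarcinoma and every inflamed sample lay below every normal sample. It fell 3.36-fold in adenocarcinoma (-1.75 ± 0.23, limma adjusted p = 6.81e-05) and 2.09-fold in inflamed mucosa (-1.06 ± 0.24, adjusted p = 0.00594). A second Bnip3 cluster gave -1.33 and -0.96, so its fall in inflamed mucosa was less than 2-fold. Adenocarcinoma was below inflamed mucosa by 0.68 (-0.68 ± 0.23), which did not pass (adjusted p = 0.0948) except without adenocarcinoma 3 (-0.84, adjusted p = 0.0295). Its relative Bnip3l, which acts in the same process, fell in adenocarcinoma (12.11 ± 0.10 against 12.42 ± 0.15, SD, n = 5 and 4, adjusted p = 0.0155). That call was lost with cyclic loess scaling (-0.19, adjusted p = 0.0578).

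Vegfa, the growth factor of blood vessels, was at 8.85, 8.95, 8.54, 9.19 and 9.10 in adenocarcinoma, 8.81, 8.48, 8.48 and 8.59 in inflamed mucosa, and 9.39, 9.50, 9.20 and 9.11 in normal mucosa. All 4 inflamed samples lay below all normal samples, while adenocarcinoma 4 reached into the normal range. Vegfa fell in inflamed mucosa (-0.71 ± 0.14, 1.64-fold, limma adjusted p = 0.00232). It also fell in adenocarcinoma (-0.38 ± 0.13, adjusted p = 0.0391), a call that ended without adenocarcinoma 1, 2 or 3 or normal mucosa 1 or 2 (adjusted p 0.064 to 0.12). Against inflamed mucosa the adenocarcinoma value was higher by 0.33 ± 0.13 (adjusted p = 0.167), which passed without adenocarcinoma 3 (0.43, adjusted p = 0.0428). In the same samples the mean of 10 endothelial markers was 8.38 to 8.72 in adenocarcinoma, 8.02 to 8.67 in inflamed mucosa and 6.0 to 6.58 in normal mucosa.

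Adm, a peptide hormone that widens vessels, was at 8.23, 8.16, 7.64, 8.58 and 8.61 in adenocarcinoma, 7.56, 7.25, 7.64 and 7.12 in inflamed mucosa, and 8.60, 8.08, 8.26 and 7.55 in normal mucosa. Adenocarcinoma 3 met inflamed mucosa 3 at 7.64, and the other 4 adenocarcinomas lay above all inflamed samples. Adm was 1.80-fold higher in adenocarcinoma than in inflamed mucosa (0.85 ± 0.22, limma adjusted p = 0.0319). The call was lost when same-numbered adenocarcinoma and inflamed samples were blocked as pairs (0.76, adjusted p = 0.0635), and without adenocarcinoma 1, 2, 4 or 6 or inflamed mucosa 2 or 4 (adjusted p 0.0596 to 0.104). Against normal mucosa, Adm differed by 0.12 ± 0.22 in adenocarcinoma (adjusted p = 0.665). It fell in inflamed mucosa (-0.73 ± 0.23, adjusted p = 0.0336), and leaving out inflamed mucosa 2 or 4 or normal mucosa 1, 2 or 4 ended that call (adjusted p 0.0666 to 0.0901).

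P4ha1 and P4ha2 encode the catalytic subunits of collagen prolyl 4-hydroxylase, and they went opposite ways in adenocarcinoma. P4ha2 was at 6.73, 7.03, 6.73, 7.01 and 7.09 in adenocarcinoma, 6.62, 6.81, 6.70 and 6.60 in inflamed mucosa, and 6.35, 6.61, 6.46 and 6.55 in normal mucosa. All adenocarcinomas were above all normal samples, and P4ha2 rose (0.42 ± 0.10, limma adjusted p = 0.00465). P4ha1 fell in adenocarcinoma, with 8.19 ± 0.27 against 8.93 ± 0.45 (SD, n = 5 and 4, adjusted p = 0.0101), which did not pass without both normal mucosa 1 and adenocarcinoma 2 (-0.54, adjusted p = 0.0717). In inflamed mucosa the differences were 0.19 ± 0.10 for P4ha2 (adjusted p = 0.182) and -0.45 ± 0.21 for P4ha1 (adjusted p = 0.118). P4ha1 passed there without normal mucosa 6 (-0.66, adjusted p = 0.0137).

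The stress genes Ndrg1 and Ddit4 passed in no comparison of the 3-group fit. Ddit4, an inhibitor of the growth kinase complex mTORC1, was at 10.24 ± 0.19 in adenocarcinoma, 9.83 ± 0.12 in inflamed mucosa and 10.03 ± 0.47 in normal mucosa (SD, n = 5, 4 and 4). Without normal mucosa 6, Ddit4 passed as lower in inflamed than in normal mucosa (-0.43, limma adjusted p = 0.024) and as higher in adenocarcinoma than in inflamed mucosa (0.41, adjusted p = 0.0403), as it was with these 2 groups fitted alone (adjusted p = 0.037). Ndrg1 passed as lower in adenocarcinoma than in inflamed mucosa without adenocarcinoma 1 (-0.39, adjusted p = 0.0411). Ankrd37, an ankyrin repeat protein gene, fell in adenocarcinoma (-0.67 ± 0.24, adjusted p = 0.0437). Its highest value was 8.56 in normal mucosa 1, against 7.11 to 7.43 in the other normal samples, and its difference without normal mucosa 1 was -0.35 (adjusted p = 0.0838). That call also ended without adenocarcinoma 2, 3, 4 or 6, inflamed mucosa 1, 3 or 4, or normal mucosa 2 (adjusted p 0.0517 to 0.101 over these and normal mucosa 1).

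**Figure D2:**
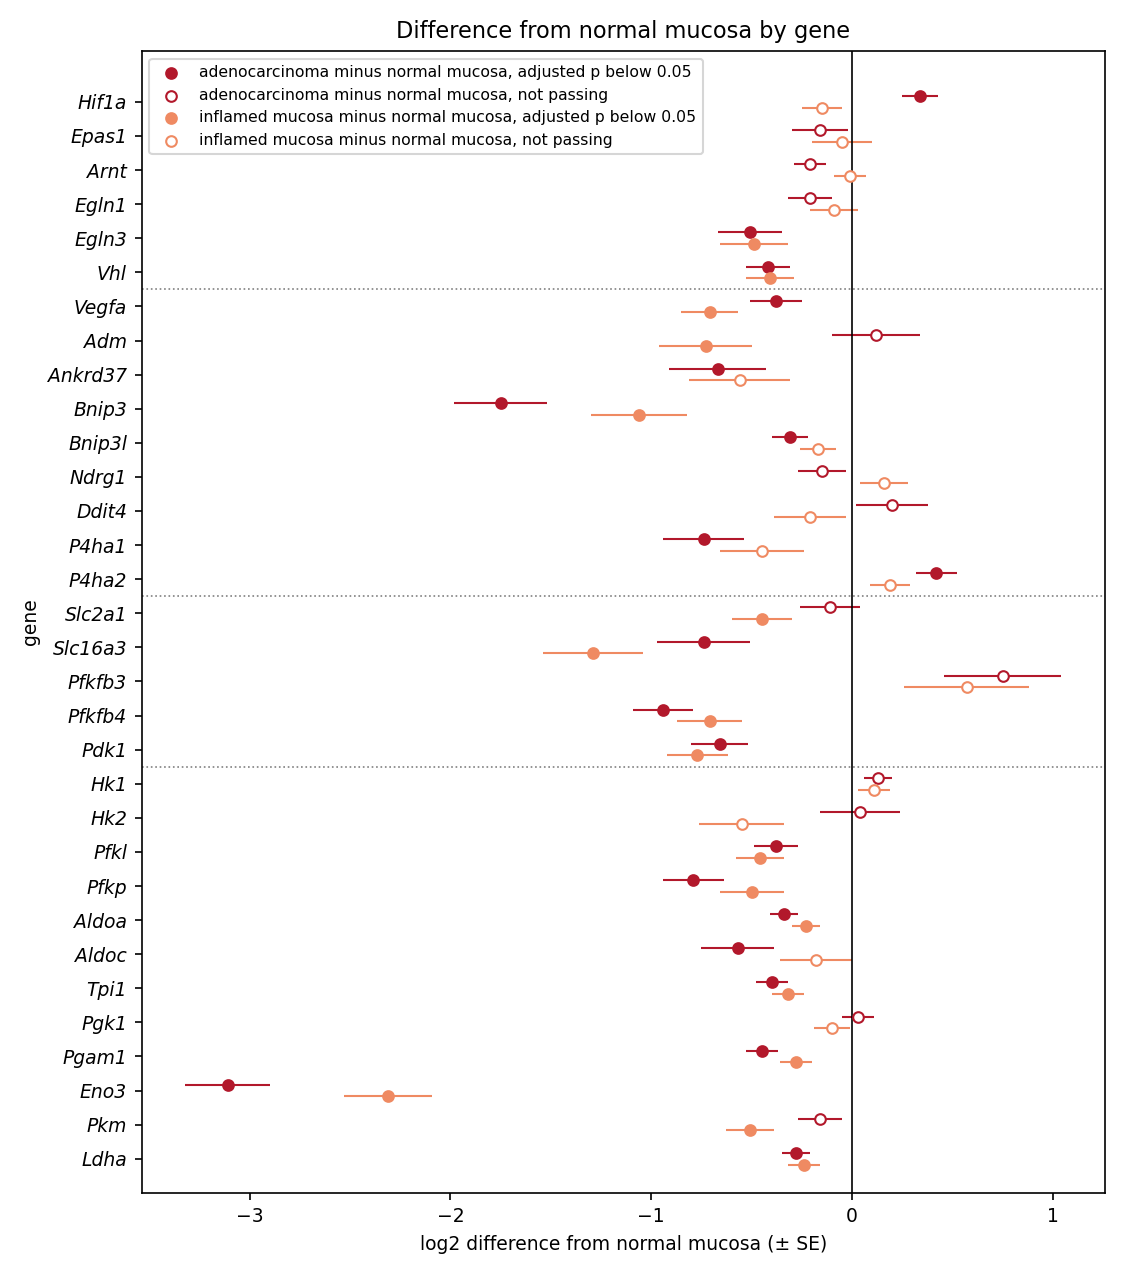
Log2 difference from normal mucosa (x axis, mean ± SE from the limma fit) for each of the 32 genes (y axis, grouped by role), with adenocarcinoma in red and inflamed mucosa in orange. Filled points passed at an adjusted p below 0.05. The 18 and 17 filled points left of 0 are the genes that fell, and Eno3 lies farthest left at -3.11 and -2.31.

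Among the 5 carriers and regulators of glycolytic flux, 3 fell in adenocarcinoma (60%) and 4 in inflamed mucosa (80%), where 19.4% and 13% of all genes fell. Slc16a3, the monocarboxylate transporter MCT4 that exports lactate, was at 8.43, 8.09, 8.12, 9.01 and 8.65 in adenocarcinoma, 7.97, 7.77, 7.77 and 8.15 in inflamed mucosa, and 9.50, 9.38, 9.54 and 8.40 in normal mucosa. All inflamed samples lay below all normal samples, and normal mucosa 6 was far below the other normal samples. Slc16a3 fell 2.44-fold in inflamed mucosa (-1.29 ± 0.25, limma adjusted p = 0.00207). It fell 1.67-fold in adenocarcinoma (-0.74 ± 0.23, adjusted p = 0.0253), a call that ended without adenocarcinoma 2 or 3 or normal mucosa 1, 2 or 4 (adjusted p 0.0598 to 0.0737). Adenocarcinoma was above inflamed mucosa by 0.54 ± 0.23 (adjusted p = 0.214), and this passed with same-numbered samples blocked as pairs (0.50, adjusted p = 0.0312).

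The bifunctional enzymes of Pfkfb3 and Pfkfb4 set the level of fructose 2,6-bisphosphate, the activator of phosphofructokinase. Pfkfb4 fell in both comparisons with normal mucosa, and Pfkfb3 did not pass in the 3-group fit. Pfkfb4 was at 7.77, 7.68, 7.74, 7.82 and 7.45 in adenocarcinoma, 8.19, 7.99, 7.55 and 7.99 in inflamed mucosa, and 8.96, 8.72, 8.64 and 8.22 in normal mucosa. All samples of both other groups lay below all normal samples. Pfkfb4 fell in adenocarcinoma (-0.94 ± 0.15, limma adjusted p = 0.000326) and in inflamed mucosa (-0.71 ± 0.16, adjusted p = 0.00561). Pfkfb3 was at 7.03, 7.18, 7.13, 7.94 and 7.76 in adenocarcinoma, 7.08, 7.66, 7.00 and 7.16 in inflamed mucosa, and 7.73, 6.35, 6.20 and 6.34 in normal mucosa. Every adenocarcinoma and inflamed sample was above normal mucosa 2, 4 and 6, and normal mucosa 1 lay among them. The differences of Pfkfb3 did not pass (0.75 ± 0.29, adjusted p = 0.0578, and 0.57 ± 0.31, adjusted p = 0.17, in adenocarcinoma and inflamed mucosa). Without normal mucosa 1, Pfkfb3 was higher in adenocarcinoma by 1.11 (adjusted p = 0.00138) and in inflamed mucosa by 0.93 (adjusted p = 0.00851). That sample had the highest squamous, neutrophil and macrophage marker means of the normal samples, and their part was not tested. Pfkfb3 also passed in adenocarcinoma without adenocarcinoma 1 (0.85, adjusted p = 0.0469).

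Pdk1 encodes a kinase that shuts off pyruvate dehydrogenase, the enzyme that oxidises pyruvate inside the mitochondrion. It was at 8.0, 8.41, 8.49, 8.18 and 8.40 in adenocarcinoma, 8.11, 8.06, 8.52 and 8.07 in inflamed mucosa, and 8.91, 9.07, 9.20 and 8.64 in normal mucosa. No sample of the other groups reached the normal range. Pdk1 fell in adenocarcinoma (-0.66 ± 0.14, limma adjusted p = 0.00245) and in inflamed mucosa (-0.77 ± 0.15, adjusted p = 0.00194). Slc2a1, the glucose transporter GLUT1, was at 12.24 ± 0.15 in adenocarcinoma, 11.90 ± 0.32 in inflamed mucosa and 12.35 ± 0.23 in normal mucosa (SD, n = 5, 4 and 4). It fell in inflamed mucosa (-0.45 ± 0.15, adjusted p = 0.0461), a call kept without adenocarcinoma 1, inflamed mucosa 1 or normal mucosa 6 and lost without any 1 of the other 10 arrays (adjusted p 0.0519 to 0.142). In adenocarcinoma its difference from normal mucosa was -0.11 ± 0.15 (adjusted p = 0.561).

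The 12 glycolytic enzymes gave 8 lower genes (66.7%) in adenocarcinoma and 8 (66.7%) in inflamed mucosa by limma, where 19.4% and 13% of all genes fell. The higher genes numbered 0 in both, also at an unadjusted p below 0.05. Of all genes, 16.4% and 13.7% rose at an adjusted p below 0.05. Eno3, the β isoform of enolase known best from muscle, was at 8.94, 9.15, 8.96, 8.5 and 7.85 in adenocarcinoma, 9.63, 9.46, 9.54 and 9.29 in inflamed mucosa, and 11.94, 11.68, 11.86 and 11.70 in normal mucosa. The 3 groups did not overlap, and adenocarcinoma 6 was the lowest sample. It fell 8.66-fold in adenocarcinoma (-3.11 ± 0.21, limma adjusted p = 1.92e-07) and 4.97-fold in inflamed mucosa (-2.31 ± 0.22, adjusted p = 7.47e-06). Adenocarcinoma was 1.74-fold below inflamed mucosa (-0.80 ± 0.21, adjusted p = 0.0323), a call that ended without adenocarcinoma 4 or any 1 inflamed sample (adjusted p 0.054 to 0.0818) and with the 2 groups fitted alone (adjusted p = 0.0575). The mean of 11 skeletal muscle markers was 5.96 to 6.25 in adenocarcinoma, 6.11 to 6.19 in inflamed mucosa and 6.23 to 6.71 in normal mucosa. The order of the groups in Eno3 was that of the 10 mature colonocyte markers, of which 10 fell in adenocarcinoma and 6 in inflamed mucosa. Their part in the fall of Eno3 was not tested.

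Phosphofructokinase, the committed step of the pathway, is built from isoforms including those of Pfkl and Pfkp. Pfkp was at 9.64, 9.88, 9.93, 9.85 and 9.63 in adenocarcinoma, 10.05, 10.05, 9.87 and 10.38 in inflamed mucosa, and 11.06, 10.48, 10.54 and 10.23 in normal mucosa. Every adenocarcinoma lay below every normal sample, and normal mucosa 1 was the highest. Pfkp fell in adenocarcinoma (-0.79 ± 0.15, limma adjusted p = 0.00116). It also fell in inflamed mucosa (-0.50 ± 0.16, adjusted p = 0.0337), which no longer passed with inflamed mucosa 1, 2 or 3 or normal mucosa 1, 2 or 4 left out (adjusted p 0.0506 to 0.083). Pfkl was at 10.02, 10.12, 10.13, 10 and 9.80 in adenocarcinoma, 10.04, 9.88, 10.05 and 9.77 in inflamed mucosa, and 10.57, 10.40, 10.54 and 10.06 in normal mucosa. Normal mucosa 6 was the lowest normal sample, within the adenocarcinoma range and just above the inflamed samples. Pfkl fell in inflamed mucosa (-0.46 ± 0.12, adjusted p = 0.0134) and in adenocarcinoma (-0.38 ± 0.11, adjusted p = 0.0195), and the call in adenocarcinoma ended without normal mucosa 1 or 4 (adjusted p 0.0542 to 0.0581).

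Aldoa and Aldoc encode aldolases, Tpi1 triosephosphate isomerase and Pgam1 phosphoglycerate mutase. Aldoa was at 12.15, 12.17, 12.16, 12.19 and 12.03 in adenocarcinoma, 12.24, 12.26, 12.28 and 12.20 in inflamed mucosa, and 12.40, 12.59, 12.49 and 12.44 in normal mucosa. Tpi1 was at 11.60, 11.67, 11.64, 11.69 and 11.51 in adenocarcinoma, 11.84, 11.61, 11.69 and 11.68 in inflamed mucosa, and 12.07, 12.04, 12.12 and 11.86 in normal mucosa. Pgam1 was at 11.33, 11.36, 11.17, 11.37 and 11.16 in adenocarcinoma, 11.51, 11.32, 11.43 and 11.51 in inflamed mucosa, and 11.77, 11.77, 11.69 and 11.68 in normal mucosa. In these 3 genes every adenocarcinoma and every inflamed sample lay below every normal sample. The differences of adenocarcinoma were -0.34 ± 0.07 for Aldoa (limma adjusted p = 0.00199), -0.40 ± 0.08 for Tpi1 (adjusted p = 0.0016) and -0.45 ± 0.08 for Pgam1 (adjusted p = 0.000585). In inflamed mucosa they were -0.23 ± 0.07 (adjusted p = 0.0319), -0.32 ± 0.08 (adjusted p = 0.0142) and -0.28 ± 0.08 (adjusted p = 0.0228) in the same order. The inflamed call of Aldoa ended without inflamed mucosa 1, 2 or 4 or normal mucosa 2 or 4 (adjusted p 0.0532 to 0.0786), and that of Pgam1 without inflamed mucosa 2 or normal mucosa 1 or 2 (adjusted p 0.0514 to 0.0767). Cyclic loess scaling also ended the inflamed calls of Aldoa (-0.13, adjusted p = 0.146) and Pgam1 (-0.21, adjusted p = 0.0528), and the 2 groups fitted alone that of Aldoa (adjusted p = 0.0737). Aldoc fell in adenocarcinoma (9.41 ± 0.41 against 9.98 ± 0.17, SD, n = 5 and 4, adjusted p = 0.0216), a call lost without adenocarcinoma 2 or normal mucosa 4 (adjusted p 0.0506 to 0.0588).

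The last steps of glycolysis make pyruvate and lactate. Pkm, pyruvate kinase of most tissues, was at 11.32, 11.43, 11.30, 11.27 and 11.66 in adenocarcinoma, 11.14, 10.88, 11.30 and 10.87 in inflamed mucosa, and 11.71, 11.62, 11.41 and 11.47 in normal mucosa. Inflamed samples lay below all normal samples, and adenocarcinomas overlapped both groups. Pkm fell in inflamed mucosa (-0.51 ± 0.12, limma adjusted p = 0.00749) and differed in adenocarcinoma by -0.16 ± 0.11 (adjusted p = 0.28). Against inflamed mucosa, Pkm in adenocarcinoma was at 0.35 ± 0.11 (adjusted p = 0.0854), and it passed without inflamed mucosa 3 (0.44, adjusted p = 0.0449). A second Pkm cluster gave 0.39 ± 0.11 there and passed (adjusted p = 0.0496 over all clusters). Ldha, which turns pyruvate into lactate, was at 12.82 ± 0.08 in adenocarcinoma, 12.86 ± 0.08 in inflamed mucosa and 13.10 ± 0.07 in normal mucosa (SD, n = 5, 4 and 4). It fell in adenocarcinoma (-0.28 ± 0.07, adjusted p = 0.00963) and in inflamed mucosa (-0.24 ± 0.08, adjusted p = 0.0328), but cyclic loess scaling ended both calls (-0.14, adjusted p = 0.074, and -0.13, adjusted p = 0.128). The inflamed call also ended without inflamed mucosa 2, 3 or 4 or normal mucosa 1, 2 or 4 (adjusted p 0.056 to 0.097).

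Hexokinases Hk1 and Hk2 and phosphoglycerate kinase Pgk1 did not pass in any comparison of the 3-group fit. Hk1 was at 12.43 ± 0.09 in adenocarcinoma, 12.42 ± 0.04 in inflamed mucosa and 12.31 ± 0.07 in normal mucosa (SD, n = 5, 4 and 4). Its direction depended on the cluster and the scaling. The cluster used, which lists 1 accession, gave 0.13 ± 0.07 in adenocarcinoma against normal mucosa, while a dimmer Hk1 cluster with 8 accessions gave -0.31 ± 0.09 (limma adjusted p = 0.0172 over all clusters). With cyclic loess the first passed as higher in adenocarcinoma (0.25, adjusted p = 0.0117) and in inflamed mucosa (0.21, adjusted p = 0.0407). Hk2 was highest in normal mucosa 1 at 10.15, against 9.23 to 9.38 in the other normal samples. Adenocarcinoma was above inflamed mucosa in Hk2 by 0.59 ± 0.20 (adjusted p = 0.0925), which passed with same-numbered samples blocked as pairs (0.60, adjusted p = 0.0348) and when normal mucosa 1 was left out (adjusted p = 0.0268). In inflamed against normal mucosa Hk2 passed as lower without inflamed mucosa 1 or normal mucosa 6 (adjusted p 0.0426 to 0.0472) and when age entered the fit (-0.59, adjusted p = 0.0426). Of the 3 Pgk1 clusters 2 hold the same values on every array, as do 2 of the 3 Pgam1 clusters, so these genes cannot be separated from near-identical copies on the array. Bnip3, Bnip3l, Hk1 and Pkm also have more than 1 cluster, and whether the brightest of them reads a copy was not tested.

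**Figure D3:**
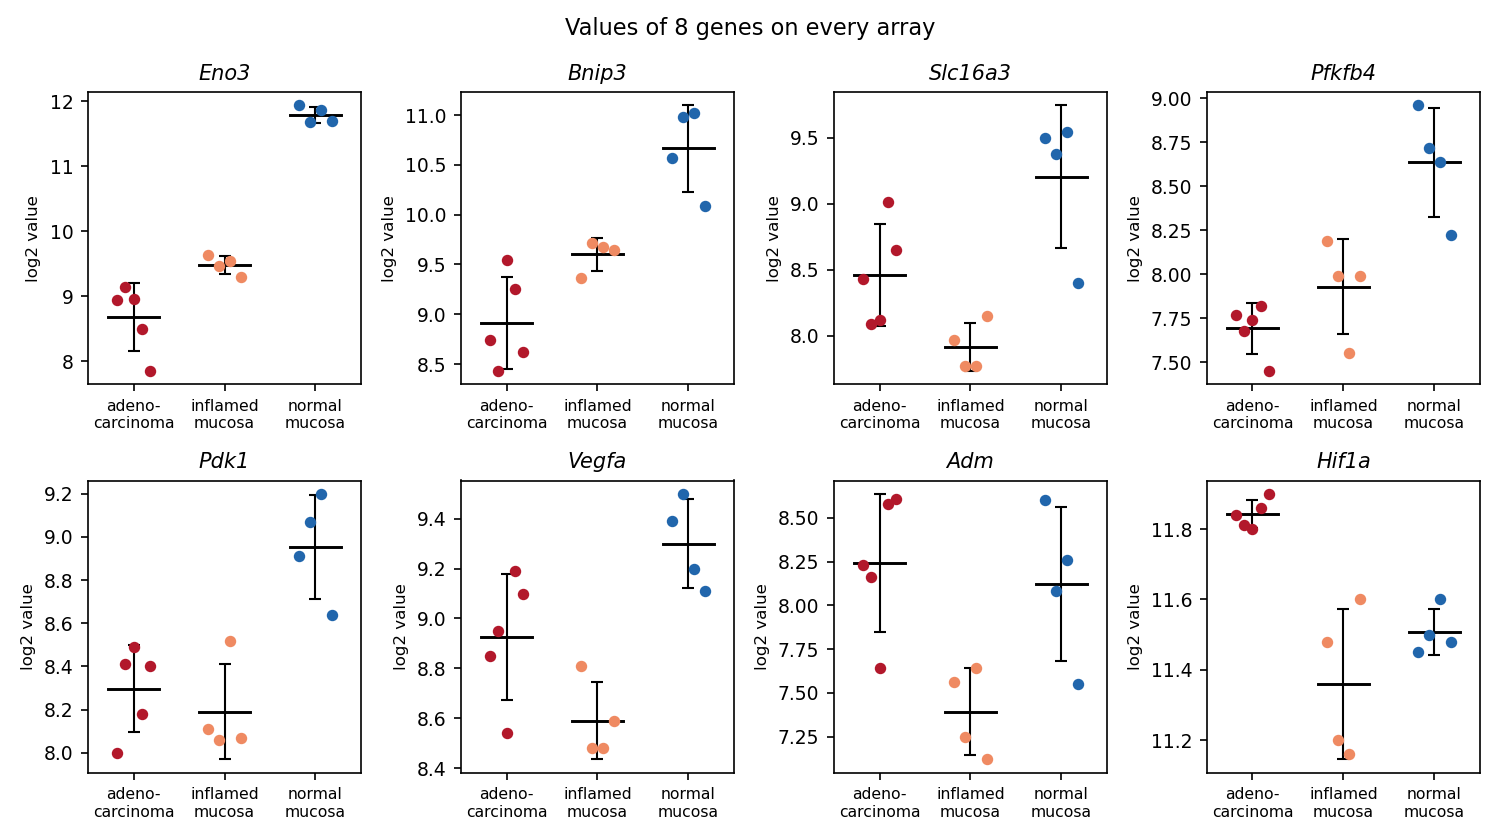
Log2 value (y axis) of 8 of the genes on every array, with 1 point per array, the mean as a line and the SD as a bar, for 5 adenocarcinoma, 4 inflamed and 4 normal samples from left to right. The axes start at different values and levels are not comparable between genes. Eno3 and Bnip3 are lowest in adenocarcinoma, Slc16a3, Vegfa and Adm are lowest in inflamed mucosa, and Hif1a is highest in adenocarcinoma.

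Adenocarcinoma and inflamed mucosa of the same number deviated together across genes, so pairs 1 to 4 were also compared number by number. Adenocarcinoma was above its paired inflamed sample in all 4 pairs in 8 of the 32 genes (25%) and below it in 7 (21.9%), where this held for 13.1% and 16.2% of all genes. Hif1a was higher by 0.36, 0.61, 0.64 and 0.26 in pairs 1 to 4. Slc16a3 was higher by 0.46, 0.32, 0.35 and 0.86, and Hk2 by 0.38, 1.14, 0.47 and 0.44. Adm was higher by 0.67, 0.91 and 1.46 in pairs 1, 2 and 4 and equal to 2 decimals in pair 3. Eno3 differed by -0.69, -0.31, -0.58 and -0.79, and Bnip3 by -0.62, -1.29, -0.14 and -0.40. With the pairs blocked, Hif1a, Slc16a3 and Hk2 passed as higher and Eno3 as lower, and the others did not pass.

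Averaged over the genes of a role, normal mucosa 1, 2 and 4 lay above all adenocarcinoma and inflamed samples in all 4 roles. The mean of the 12 glycolytic enzymes was 10.76 to 11.00 in adenocarcinoma, 10.91 to 11.10 in inflamed mucosa and 11.30 to 11.60 in normal mucosa. These ranges do not overlap with the normal range. In the other 3 roles normal mucosa 6 lay within or next to the other groups. For oxygen sensing its mean was 10.17, against 10.44 to 10.50 in the other normal samples, 10.14 to 10.29 in adenocarcinoma and 10.14 to 10.25 in inflamed mucosa. Over all 32 genes it was at 10.04, against 10.34 to 10.47 in the other normal samples. Normal mucosa 6 also had the highest smooth muscle marker mean of the normal samples, 8.17. This was below the 8.69 to 8.94 of adenocarcinoma and the 10.18 to 11.08 of inflamed mucosa. Among normal samples it was also highest in fibroblast, endothelial and proliferation markers and lowest in epithelial markers. The part of this makeup in these values was not tested.

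**Figure D4:**
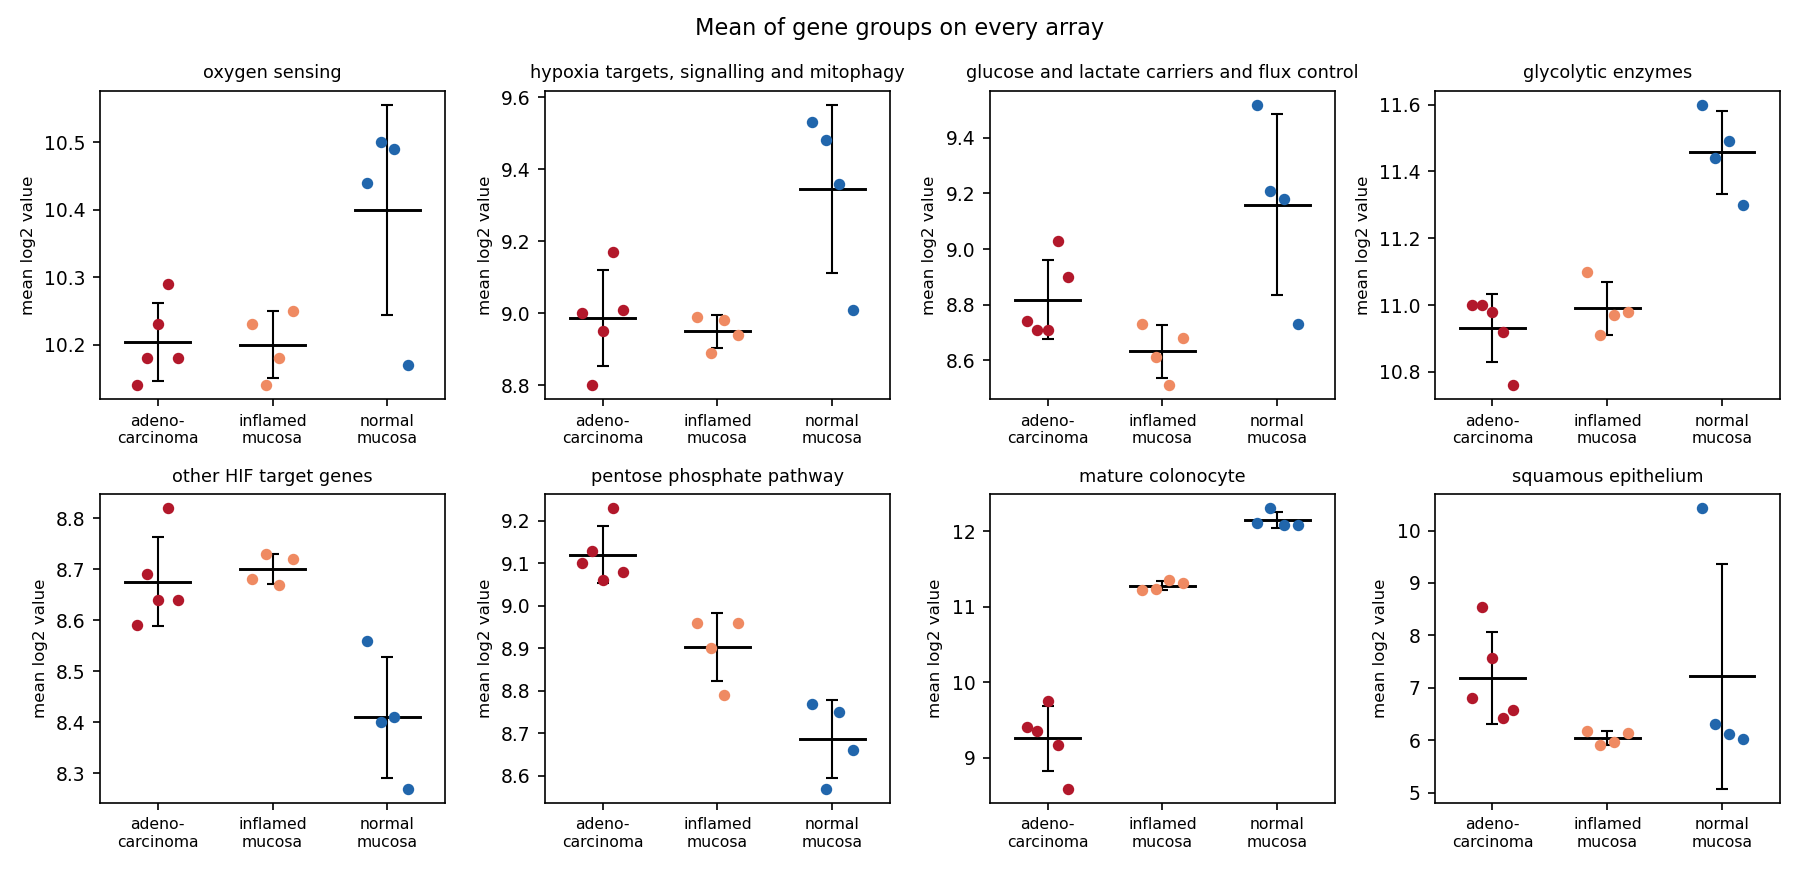
Mean log2 value (y axis) of each of 4 roles, 2 further pathway lists and 2 cell type marker lists on every array, with 1 point per array, the mean as a line and the SD as a bar, for adenocarcinoma, inflamed and normal mucosa from left to right. Glycolytic enzymes of all normal samples lie above all others, normal mucosa 6 is the low normal point in the roles, and normal mucosa 1 is the high point at 10.43 in squamous epithelium markers.

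Other genes known as HIF targets changed in both directions. Of 40 measured, 15 rose (37.5%) and 9 fell (22.5%) in adenocarcinoma, where 16.4% and 19.4% of all genes did. In inflamed mucosa 14 rose (35%) and 5 fell (12.5%), where 13.7% and 13% of all genes did. The median differences were 0.02 and 0.01. Lox, which cross-links collagen, was at 8.90 ± 0.40 in adenocarcinoma, 7.68 ± 0.39 in inflamed mucosa and 4.90 ± 0.07 in normal mucosa (SD, n = 5, 4 and 4). All 4 normal values were below 5.57, which is taken here as background. It is the highest value of transcripts absent by sex, Y-linked ones in female samples and Xist in male samples. Against that level Lox was at least 10-fold higher in adenocarcinoma (limma adjusted p = 1.95e-08 for the measured difference). The secreted stanniocalcin Stc1 rose 5.52-fold in adenocarcinoma (adjusted p = 6.51e-07), the haem oxygenase gene Hmox1 rose 2.84-fold (adjusted p = 9.29e-07) and the lipid droplet gene Hilpda rose 2.36-fold (adjusted p = 1.01e-06). In inflamed mucosa the lowest adjusted p among these genes belonged to Lox (at least 4.31-fold), Stc2 (3.69-fold), the collagen lysyl hydroxylase gene Plod2 (at least 4.87-fold) and the VEGF receptor gene Flt1 (2.49-fold), all higher. The normal mean of Plod2, 5.38, was also below 5.57, so its fold is a bound as for Lox, with 3 of 4 normal samples at or below that level. Between adenocarcinoma and inflamed mucosa, 5 of the 40 were higher (12.5%) and 1 lower (2.5%), where 2.91% and 4.21% of all genes were. Hmox1 (1.76-fold), Anxa2 (1.63-fold) and Hilpda (1.54-fold) were among the higher, and Ppp1r3c was lower (2.45-fold). Fibroblast markers, 10 of 10, and endothelial markers, 10 of 10, rose with these genes in both groups. So did macrophage markers (8 and 9 of 9) and smooth muscle markers (8 and 10 of 10) in adenocarcinoma and inflamed mucosa. Neutrophil markers were higher in adenocarcinoma than in inflamed mucosa (7 of 10). The part of these cell types was not tested.

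Of 14 other regulators of oxygen sensing measured, 1 rose (7.14%) and 3 fell (21.4%) in adenocarcinoma, where 16.4% and 19.4% of all genes did. In inflamed mucosa 1 fell (7.14%), where 13% of all genes did, and by limma 0 passed between adenocarcinoma and inflamed mucosa (1 higher and 1 lower at an unadjusted p below 0.05). Cited2, a competitor of HIF-α for its coactivators, fell in adenocarcinoma (-0.83 ± 0.16, limma adjusted p = 0.00121) and in inflamed mucosa (-0.64 ± 0.17, adjusted p = 0.0133). The coactivator gene Ep300 fell in adenocarcinoma (-0.34 ± 0.10, adjusted p = 0.018). Calls of Elob, a partner of the Vhl protein (0.40, adjusted p = 0.0368), and of Hif3a (-0.43, adjusted p = 0.0456) depended on single arrays. They were lost with 6 of 13 arrays left out in turn for Elob (adenocarcinoma 2, 4 or 6, normal mucosa 1, 2 or 4). For Hif3a this was so with 10 of 13 (all but adenocarcinoma 2, inflamed mucosa 2 and normal mucosa 2). The Elob call was also lost with the mean over its clusters (0.33, adjusted p = 0.0676) and with its dimmest cluster (0.26, adjusted p = 0.134).

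Among 28 other glycolytic genes and sugar or lactate carriers, 12 fell (42.9%) and 4 rose (14.3%) in adenocarcinoma, where 19.4% and 16.4% of all genes did. In inflamed mucosa 10 fell (35.7%) and 4 rose (14.3%), where 13% and 13.7% of all genes did. The sodium-coupled glucose carrier Slc5a1 averaged 9.46 ± 0.26 in adenocarcinoma, 9.99 ± 0.03 in inflamed mucosa and 10.85 ± 0.13 in normal mucosa (SD, n = 5, 4 and 4), and it fell in both (limma adjusted p = 1.74e-06 and 0.000276). The fructose carrier Slc2a5 fell 3.65-fold in adenocarcinoma and 3.04-fold in inflamed mucosa, and Hkdc1, a hexokinase relative, fell 1.79-fold and 1.61-fold. Bpgm, the enzyme of 2,3-bisphosphoglycerate, rose in adenocarcinoma against normal mucosa (0.85 ± 0.13, adjusted p = 0.00023) and against inflamed mucosa (0.91 ± 0.13, adjusted p = 0.000943). The lactate and pyruvate carrier Slc16a7 rose 3.12-fold in inflamed mucosa and was lower in adenocarcinoma than in inflamed mucosa (-0.96 ± 0.16, adjusted p = 0.00285), as were Slc2a4 (-1.21 ± 0.20, adjusted p = 0.00248) and Eno2 (-0.53 ± 0.10, adjusted p = 0.00659).

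A further 12 measured genes cover pyruvate entry into mitochondria and its use there. Of these, 4 were lower (33.3%) and 2 higher (16.7%) in adenocarcinoma, where 19.4% and 16.4% of all genes were. In inflamed mucosa 3 were lower (25%) and 2 higher (16.7%), where 13% and 13.7% of all genes were. The isoenzymes of Pdk1 did not move alike. Pdk2 fell 4.16-fold in adenocarcinoma (-2.06 ± 0.20, limma adjusted p = 4.8e-06) and 1.99-fold in inflamed mucosa (-1.0 ± 0.21, adjusted p = 0.00381). Pdk3 rose in inflamed mucosa (0.65 ± 0.16, adjusted p = 0.0116). Pdk4 was at 5.33 ± 0.16 in adenocarcinoma, 7.46 ± 1.00 in inflamed mucosa and 5.32 ± 0.38 in normal mucosa (SD, n = 5, 4 and 4), so only its inflamed mean lay above 5.57. The pyruvate carboxylase gene Pcx, which feeds pyruvate into the citrate cycle and gluconeogenesis, fell 2.79-fold in adenocarcinoma (adjusted p = 0.00011), the phosphatase gene Pdp2 fell 1.97-fold and the carrier gene Mpc1 1.39-fold. Of 8 genes of gluconeogenesis, Pck1 and Pcx fell in adenocarcinoma (25%, against 19.4% of all genes), Pck1 by 4.17-fold (adjusted p = 6.65e-05).

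The pentose phosphate pathway, which branches from glycolysis to make NADPH and ribose, had higher genes in both comparisons with normal mucosa. Of its 9 measured genes, 5 rose (55.6%) and 0 fell in adenocarcinoma and 3 rose (33.3%) and 0 fell in inflamed mucosa by limma, where 16.4% and 13.7% of all genes rose and 19.4% and 13% fell. The median differences were 0.27 and 0.13. G6pdx of this pathway has no value here, as no cluster was listed for it alone. At an unadjusted p below 0.05 the lower genes numbered 0 and 1. H6pd rose 2.35-fold in adenocarcinoma (1.23 ± 0.16, limma adjusted p = 6.78e-05) and 1.85-fold in inflamed mucosa (adjusted p = 0.00196). The transketolase gene Tkt rose in adenocarcinoma (0.68 ± 0.12, adjusted p = 0.000876). Its call in inflamed mucosa was lost without inflamed mucosa 1, 3 or 4 or normal mucosa 1 or 2 (adjusted p 0.0506 to 0.0653). Prps2, which makes phosphoribosyl pyrophosphate, rose 1.51-fold and 1.65-fold in adenocarcinoma and inflamed mucosa. Rpia rose in adenocarcinoma (0.33 ± 0.10, adjusted p = 0.0244), a call lost without normal mucosa 2 (0.28, adjusted p = 0.0775). Between adenocarcinoma and inflamed mucosa, Pgd was higher (0.41 ± 0.08, adjusted p = 0.00894). Proliferation markers, 9 of 9 in adenocarcinoma and 5 of 9 in inflamed mucosa, rose in the same samples, and their part was not tested.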

How the data were processed

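RNA of 13 samples of mouse rectum was read on 1 array each. The deposited values are log2 expression values per transcript cluster, made by the authors with RMA in Affymetrix Expression Console 1.1 after scanning with Command Console 2.0, per the series' design text. Partek is listed in the submitters' processing notes, with no role given. Because RMA makes the arrays' distributions equal, a change in total RNA cannot show, and it shrinks differences of dim genes. Tumours were found by a pathologist on neighbouring stained 5 µm sections, per the labels' protocols.

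Of 35556 clusters, 21789 name 1 gene, 1621 name several and 12146 are not listed in the platform annotation. Symbols of 21698 clusters matched RefSeq (GRCm38.p6), which gave 19938 genes. The brightest cluster by mean stands for each of the 999 genes that have more than 1. All of these genes were tested, dim ones too, and 0 value columns were left aside. Groups came from the tissue labels. One limma 3.58.1 fit (R 4.3.3, lmFit and eBayes) of 3 groups was adjusted by Benjamini-Hochberg over all genes and called at an adjusted p below 0.05. The fitting step was tested on simulated data. Means, lists and motif counts were made in Python 3.11.15 with pandas 2.3.3.

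The genes and lists described were chosen with earlier results of these data known, and no test was made over a list. Values on every array are given for the 6 oxygen-sensing genes and, per comparison, for called genes with no overlap between groups, the 8 most different in each direction at most. Pfkfb3 falls outside this rule and was added after its values were seen. Of each other pathway list, up to 4 called genes with the smallest adjusted p were eligible to be named. Other genes are given by means, folds or counts.

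Replicate numbers come from the titles. In the 4 same-numbered adenocarcinoma and inflamed pairs, the samples' deviations from their group means had correlations of 0.319, 0.198, 0.199 and 0.387 across genes. These were taken as paired, since every correlation was above 0.1. Same-numbered normal samples correlated with the others at -0.126 to 0.0413 and were not. Sex and age do not decide this, as normal samples 1, 2 and 4 share them with the same-numbered samples too. The cut-off of 0.1 has no reference, as correlations of differently numbered samples were not set beside these. The main fit of 3 groups holds no block for pairs, which enter only as an alternative. Alternatives were a block for the replicate number, a covariate for sex or for age, the 2 groups alone, array centring, cyclic loess, a filter on the lowest 1 in 3 genes by mean, other clusters, another variance model, a 2-fold threshold and arrays left out. Leaving out normal mucosa 1 with normal mucosa 6 or with adenocarcinoma 2, and using the dimmest cluster, were chosen after seeing the data.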

Additional observations from a re-analysis of the deposited data

Results flagged for a closer look

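In 9 of 111 groups of values, 1 sample lay far from the others of its group, where chance gives about 1 in 20. Normal mucosa 1 was high in Pfkfb3 (7.73, next 6.35) and Hk2 (10.15, next 9.38). Normal mucosa 6 was low in Slc16a3 (8.40, next 9.38) and Egln1 (9.26, next 9.74). Inflamed mucosa 3 was low in Egln1 (9.38, next 9.59) and Vhl (7.79, next 8.05) and high in Pdk1 (8.52, next 8.11). Adenocarcinoma 1 was low in Epas1 (10.34, next 10.54), and adenocarcinoma 6 was low in Aldoa (12.03, next 12.15).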

How the results depend on the processing

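The median over the 32 genes stayed below 0 in both comparisons with normal mucosa under every alternative run. Leaving out each array in turn gave 9 to 20 lower and 0 to 1 higher in inflamed against normal mucosa, where 6.98% to 15.2% and 10.7% to 13.9% of all genes were. In adenocarcinoma against inflamed mucosa it gave 1 to 3 higher and 0 to 2 lower, where 1.51% to 3.32% and 2.37% to 4.97% of all genes were. With the 2 groups fitted alone, 11 were lower in inflamed against normal mucosa, where 8.72% of all genes were. In adenocarcinoma against inflamed mucosa 4 were then higher and 0 lower, where 3.41% and 4.98% of all genes were. Without both normal mucosa 1 and adenocarcinoma 2, 9 were lower in adenocarcinoma and 9 lower and 1 higher in inflamed mucosa, each against normal mucosa. The shares of all genes were 12.3%, 8.61% and 11.3% in the same order. Without both normal mucosa 1 and 6, 1 was higher in inflamed against normal mucosa and 4 in adenocarcinoma against inflamed mucosa. Of all genes, 11.9% and 3.35% were higher there. Cyclic loess gave 1 higher in inflamed against normal mucosa, where 14.7% of all genes were. A threshold of at least 2-fold left 2 lower and 0 higher in adenocarcinoma and 3 lower in inflamed mucosa against normal mucosa, and 0 of either direction in adenocarcinoma against inflamed mucosa. Of all 19938 genes, 525 were lower and 864 higher at that size in adenocarcinoma against normal mucosa. In inflamed against normal mucosa 212 were lower, and in adenocarcinoma against inflamed mucosa 140 were higher and 269 lower. The dimmest cluster turned Hk1 in adenocarcinoma against normal mucosa to -0.31. ACGTG alone gave 53.5% of windows. With the replicate block over adenocarcinoma and inflamed pairs, 3 genes were higher and 1 lower, where Slc16a3 and Hk2 gained and Adm lost its call, and no other call among the 32 changed. Over all genes, 3.67% were higher and 5.89% lower in that fit. The replicate block over all arrays also groups the normal samples by number, although these were not taken as paired. It gave 18 lower and 2 higher in adenocarcinoma against normal mucosa, where 16.8% and 16.2% of all genes were. There Vegfa lost its call (-0.31, adjusted p = 0.0924) and Arnt gained one (-0.23, adjusted p = 0.0498). In inflamed against normal mucosa this block gave 18 lower, where 10.9% of all genes were. Adm lost its call there (-0.71, adjusted p = 0.0793), and P4ha1 (-0.56, adjusted p = 0.0182) and Hk2 (-0.53, adjusted p = 0.0486) gained one. In adenocarcinoma against inflamed mucosa Adm lost its call (0.87, adjusted p = 0.0676) and Hk2 gained one (0.63, adjusted p = 0.0468). With the 2 groups alone, Vegfa, Ankrd37 and Slc16a3 lost their calls in adenocarcinoma (adjusted p 0.0506 to 0.0759), and Egln3, Vhl, Slc2a1, Pfkp, Aldoa and Ldha in inflamed mucosa (adjusted p 0.0672 to 0.0958), each against normal mucosa. Sex as a covariate ended the inflamed calls of Egln3, Adm and Slc2a1 (adjusted p 0.0525 to 0.0702). Centring the arrays ended the adenocarcinoma call of Vegfa (adjusted p = 0.0509) and the inflamed call of Egln3 (adjusted p = 0.052), and cyclic loess the inflamed calls of Egln3 and Slc2a1 (adjusted p 0.0666 to 0.0816). The causes were not tested. The small number of arrays limits how small a difference can pass.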
